A study of Mus musculus with 4 samples.

Results

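Bcl6 and Lpp are neighbouring genes on mouse chromosome 16, and their shared stretch of chromatin was described by the peaks of acetylated histone H4 that lie in it. The members were the peaks of 4 deposited lists that overlap mm9 chromosome 16, positions 23930000 to 25000000, an interval of 1.07 Mb with Bcl6 at its left end and Lpp at its right. They numbered 322 of the 175801 peaks in all. The interval was chosen by measured values: its cover by peaks in LPS-treated against untreated macrophages of both genotypes had been seen in these lists beforehand. The LPS comparisons given here therefore describe it and support nothing.

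Each list came from chromatin immunoprecipitation and sequencing of 1 library of macrophages differentiated in culture from C57BL/6 mouse bone marrow and used when they had differentiated to day 7. The 4 groups were HDAC3 -/- (HDAC3 KO) treated with LPS, HDAC3 KO left untreated, HDAC3 +/- (labelled wild type, wt) treated with LPS, and wt left untreated. By that label the wt cells were heterozygous for Hdac3. LPS is bacterial lipopolysaccharide, which macrophages sense through TLR4, and it was given at 100 ng/ml for 4 h. The sources used here state neither how the allele was deleted nor how many mice stood behind a library. With 1 library per group, every difference below is between libraries, has no replicate check and carries no p-value.

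BCL6 is a zinc finger repressor that binds DNA and recruits the corepressors SMRT and NCoR, which carry HDAC3, and BCOR. In macrophages it is known for holding down inflammatory genes, and in B cells it represses its own gene. LPP is a LIM domain protein of focal adhesions whose gene is very long and hosts a microRNA. Acetylation of histone H4 marks active promoters and enhancers, and histone deacetylases such as HDAC3 remove it.

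In RefSeq's GRCm38.p6 annotation, 9 genes stand between Bcl6 and Lpp, of which 7 are long noncoding RNAs and 2 are pseudogenes. There were 0 protein-coding genes between them. A further 5 small or noncoding genes lie within Lpp, among them Mir28a. That build is not the one of the peak lists, so no peak was placed in an exon, an intron or a promoter, and which gene a peak acts on was not determined. The RefSeq promoters (250 bases before to 50 after a start) are shown for the starts that frame the interval's genes, the outermost start of Bcl6, an inner start of Bcl6, and the outermost start of Lpp. In GRCm38.p6 they lie at chr16:23988803-23989102 and chr16:23981234-23981533 on the minus strand for Bcl6, and chr16:24393100-24393399 on the plus strand for Lpp, and these positions are not to be read against the mm9 peaks. Capitals mark matches on either strand to TTCCNNGAA (STAT and BCL6), GGGANNNCC (NF-kB), TGANTCA (AP-1), TTGCNNAA (C/EBP), GAGGAA (PU.1) and GAAANNGAA (interferon response).
Bcl6, outermost start: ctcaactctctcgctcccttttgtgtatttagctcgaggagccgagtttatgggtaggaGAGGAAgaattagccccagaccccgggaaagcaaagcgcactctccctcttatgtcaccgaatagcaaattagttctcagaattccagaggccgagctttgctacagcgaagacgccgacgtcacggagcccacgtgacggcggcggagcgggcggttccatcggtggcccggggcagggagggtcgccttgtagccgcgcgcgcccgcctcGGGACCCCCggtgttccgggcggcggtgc
Bcl6, inner start: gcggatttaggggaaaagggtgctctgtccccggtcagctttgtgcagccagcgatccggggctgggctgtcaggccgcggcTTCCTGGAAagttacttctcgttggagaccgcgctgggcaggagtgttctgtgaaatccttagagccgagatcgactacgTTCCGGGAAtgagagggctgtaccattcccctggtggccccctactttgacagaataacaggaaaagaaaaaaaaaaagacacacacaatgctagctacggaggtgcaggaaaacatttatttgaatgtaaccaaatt
Lpp, outermost start: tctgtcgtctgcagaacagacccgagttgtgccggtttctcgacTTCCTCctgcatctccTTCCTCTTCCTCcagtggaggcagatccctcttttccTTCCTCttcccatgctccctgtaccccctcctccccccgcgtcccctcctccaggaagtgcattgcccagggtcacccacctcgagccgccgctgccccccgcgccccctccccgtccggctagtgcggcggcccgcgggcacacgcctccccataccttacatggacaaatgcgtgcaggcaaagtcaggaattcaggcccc

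The inner Bcl6 start held 2 matches to the STAT and BCL6 motif and no other match, and 4.81% of the 32851 RefSeq promoters held at least 1. The outermost Bcl6 start held 1 NF-kB match, found in 18.6% of promoters, and 1 PU.1 match, found in 28.3%. The outermost Lpp start held 4 PU.1 matches on the other strand, 2 of them back to back. A second Lpp start in the table held 1 STAT and BCL6 match. AP-1, C/EBP and interferon response motifs, present in 7.81, 10.8 and 8.56% of promoters, had no match in these windows. GC content was 62.7% at the outermost and 51.7% at the inner Bcl6 start, and 64.7% at the Lpp start, against a median of 52.7% over all promoters.

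Peaks covered more of the interval in both LPS-treated libraries than in either untreated one. There were 93 member peaks in LPS-treated HDAC3 KO, 48 in untreated HDAC3 KO, 111 in LPS-treated wt and 70 in untreated wt. They covered 128, 36.6, 121 and 51.8 kb in the same order, which is 11.98, 3.42, 11.3 and 4.84% of the interval. Covered length was thus 3.50-fold higher with LPS in HDAC3 KO and 2.34-fold higher in wt, while the cover of the whole lists differed 1.38-fold and 1.06-fold. Read depth was unknown, and cover of this kind depends on depth and on the immunoprecipitation.

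Covered length differed less between genotypes than with LPS, but the interval was chosen on the LPS contrast, so nothing is read from this order. LPS-treated HDAC3 KO covered 1.06 times the length of LPS-treated wt, against 1.35 times over the whole lists. The order of these 2 libraries turned when cover was scaled to the list totals (0.785) and when each list was limited to its 20000 highest-scored peaks (0.918). Untreated HDAC3 KO covered 0.707 times the length of untreated wt, against 1.03 times over the whole lists. Base by base, LPS-treated HDAC3 KO and wt shared 93.5 kb, which is 73.0% of the first and 77.2% of the second, and the untreated pair shared 28.2 kb, or 76.9% of HDAC3 KO cover and 54.4% of wt cover. Of the 163 kb covered in any list, 24.6 kb was covered in all 4 and 49.9 kb in both LPS-treated lists and neither untreated one. Only 1.03 kb was covered in both untreated lists and neither LPS-treated one.

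Peaks of the interval were mostly of modest width. The median width was 1091 bp in LPS-treated HDAC3 KO, 751.5 bp in untreated HDAC3 KO, 803 bp in LPS-treated wt and 602.5 bp in untreated wt, against 836, 691, 722 and 590.0 bp over the whole lists. Each peak carries a score, the peak caller's value as the authors deposited it, whose scale is not stated and which ranks peaks within a list only, so scores of different libraries given side by side are each list's own and no size of difference is read from them. The top 10% of its own list by score held 12 members in LPS-treated HDAC3 KO (12.9% of its members), 2 in untreated HDAC3 KO (4.17%), 9 in LPS-treated wt (8.11%) and 2 in untreated wt (2.86%).

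**Figure D1:**
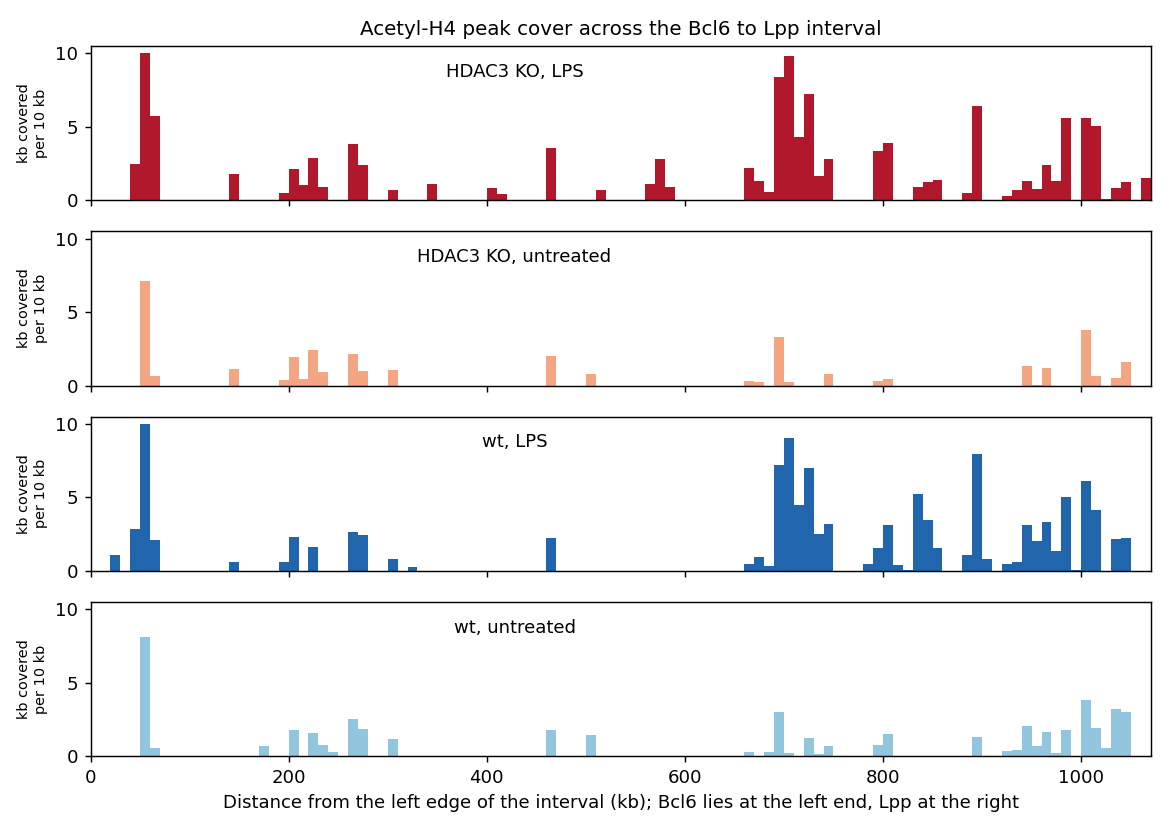
Covered length in kb per 10-kb bin against distance in kb from the left edge of the interval, 1 panel per library. Cover stands at the Bcl6 end in all 4 libraries, and the block at the Lpp end is far fuller in both LPS-treated libraries than in the untreated ones, as in its first 50-kb window with 24.3 kb in HDAC3 KO with LPS against 3.77 kb without, and 22.0 kb in wt with LPS against 3.47 kb without.

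Cover fell into 3 stretches of neighbouring 50-kb windows with at least 5 kb covered in any library, called here the first, the second and the third domain. The first is the single window from 23950001 to 24000000, where the peaks at the Bcl6 end lie. The second is the window from 24150001 to 24200000. The third spans 400 kb, from 24600001 to 25000000, at the end of the interval that holds Lpp. The annotated length of Lpp, 599 kb, exceeds that of this domain, so the gene cannot lie in it alone. It held 62.5% of the interval's cover in LPS-treated HDAC3 KO, 39.4% in untreated HDAC3 KO, 75.2% in LPS-treated wt and 56.0% in untreated wt.

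**Figure D2:**
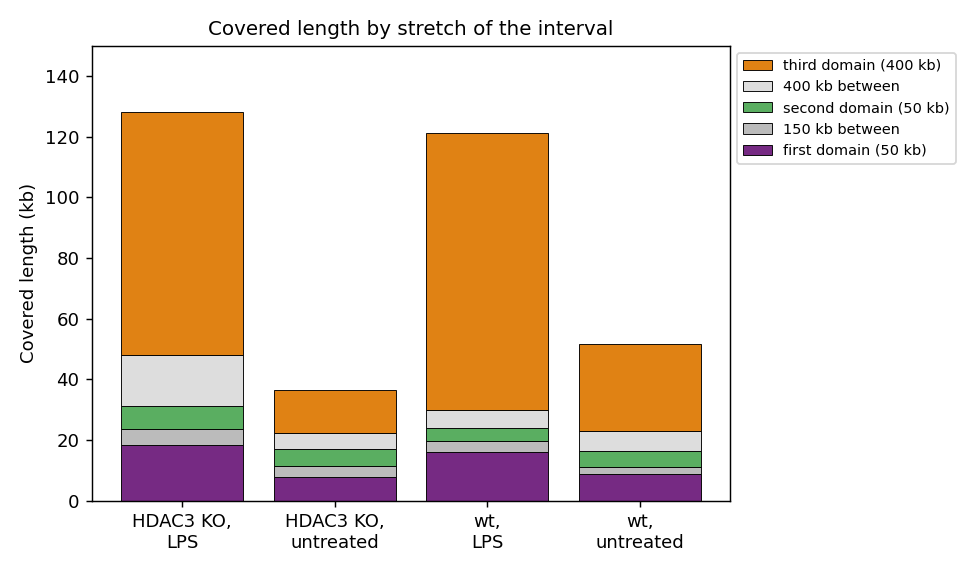
Covered length in kb of the 3 domains and the stretches between them, stacked from the left end of the interval (bottom) to its right end (top), 1 bar per library. The third domain is the tallest part of every bar, with 80.1 kb in HDAC3 KO with LPS against 14.4 kb without, and 91.2 kb in wt with LPS against 29.0 kb without.

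At the Bcl6 end the widest peak of the interval was called, and it was a single peak only with LPS. It ran from 23979099 to 23991193 (12095 bp, score 3100) in LPS-treated HDAC3 KO and from 23979179 to 23990403 (11225 bp, score 3100) in LPS-treated wt. By width these ranked 5 in the HDAC3 KO list and 2 in the wt list. In untreated cells the same stretch held separate peaks: 9 covering 7092 bp, with scores of 62.1 to 505, in HDAC3 KO, and 7 covering 8103 bp, with scores of 57.1 to 448, in wt. By rank in its own list, the LPS-treated peak scored at or above 99.9% of peaks in either genotype, while the untreated pieces scored at or above 16.6 to 90.3% of peaks in HDAC3 KO and 10.7 to 89.9% in wt.

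The untreated pieces lay inside the LPS-treated peaks, and the highest-scored piece lay at a different place in each untreated list. The pieces were cut differently in the 2 lists and are not matched units. The untreated wt piece at 23983879 to 23985851 overlapped 3 pieces of untreated HDAC3 KO, scored up to 296. In untreated HDAC3 KO the highest-scored piece was the rightmost, at 23988516 to 23989450 (score 505), followed by 23986958 to 23988384 (383). In untreated wt the highest was 23983879 to 23985851 (448), followed by 23986123 to 23988480 (378) and the rightmost, 23988526 to 23989335 (332). The count of pieces depends on how near peaks are joined. With peaks joined across gaps of up to 500 bp, a setting chosen after seeing the data, untreated HDAC3 KO had 2 peaks there, the wider 5646 bp, and untreated wt had 1 of 9295 bp. The LPS-treated peaks then measured 15774 bp in HDAC3 KO and 13704 bp in wt.

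**Figure D3:**
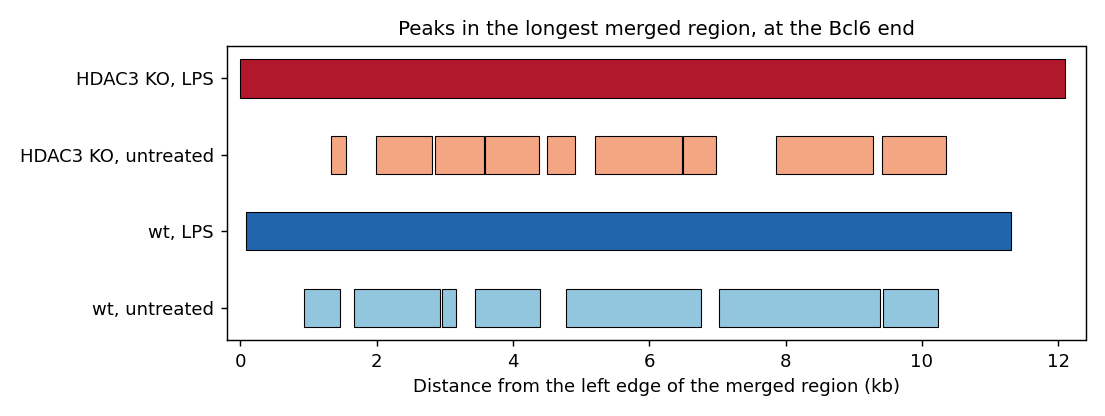
Each bar is a deposited peak, drawn to scale in kb from the left edge of the merged region at the Bcl6 end, 1 row per library. A single peak of 12095 bp in LPS-treated HDAC3 KO and of 11225 bp in LPS-treated wt spans the place of 9 separate peaks in untreated HDAC3 KO, and of 7 in the untreated wt library.

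Over the whole window of the first domain, peaks covered 18.2 kb in LPS-treated HDAC3 KO, 7.73 kb in untreated HDAC3 KO, 16.1 kb in LPS-treated wt and 8.69 kb in untreated wt. Both LPS-treated libraries were above both untreated ones. The window ranked 173, 841, 110 and 448 by cover in its library among the 17547 windows with a peak in any list. At its left side, 2 peaks at 23958494 to 23958900 (score 70.6) and 23959128 to 23959807 (80.5) were listed in LPS-treated wt and in no other library. To its right, the window from 24000001 to 24050000 held no peak in any library, and so did the 20.0 kb at the left edge of the interval.

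The second domain differed less with LPS than the first, with LPS-treated to untreated ratios of 1.39 in HDAC3 KO and 0.830 in wt. Peaks covered 7.62 kb in LPS-treated HDAC3 KO, 5.48 kb in untreated HDAC3 KO, 4.28 kb in LPS-treated wt and 5.16 kb in untreated wt. LPS-treated HDAC3 KO was the highest and LPS-treated wt the lowest. A peak at 24165399 to 24166287 in LPS-treated HDAC3 KO (score 202) had counterparts in untreated HDAC3 KO (289) and untreated wt (166), and LPS-treated wt had none within 5 kb.

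Between the first and the second domain, cover was low in all libraries. The window from 24050001 held 1.80 kb in LPS-treated HDAC3 KO, 1.10 kb in untreated HDAC3 KO, 0.626 kb in LPS-treated wt and 0 in untreated wt, and that from 24100001 held 3.68, 2.73, 2.89 and 2.44 kb in the same order. Untreated HDAC3 KO had its highest-scored peak with no untreated wt peak within 5 kb at 24075737 to 24076247, and its score was 60.7.

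Between the second and the third domain, 3 of the 18 regions made by merging overlapping peaks of the 4 lists had a peak in all 4. At 24237903 to 24239071 scores reached 58.0 in LPS-treated HDAC3 KO, 303 in untreated HDAC3 KO, 89.1 in LPS-treated wt and 231 in untreated wt. The highest-scored of the 3 in every list was 1 peak that stood at the same place in all 4. It was scored 1861 in LPS-treated HDAC3 KO (24392140 to 24395712, 3573 bp), 1038 in untreated HDAC3 KO (24392789 to 24394831, 2043 bp), 2013 in LPS-treated wt (24392624 to 24394865, 2242 bp) and 1062 in untreated wt (24392630 to 24394403, 1774 bp). It was the highest-scored member of both untreated lists, at or above 98.2% of the HDAC3 KO list and 98.8% of the wt list, and stood alone in its 50-kb window in every library. Both untreated lists also held a peak at an overlapping place, 24434793 to 24435547 (score 180) in HDAC3 KO and 24434517 to 24435977 (170) in wt. Neither LPS-treated library had a peak within 5 kb of it.

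Elsewhere in those 400 kb, LPS-treated HDAC3 KO held more peaks than the other libraries. Cover from 24200001 to 24600000 was 16.8 kb in LPS-treated HDAC3 KO, 5.15 kb in untreated HDAC3 KO, 6.17 kb in LPS-treated wt and 6.53 kb in untreated wt. The LPS-treated to untreated ratio was 3.26 in HDAC3 KO and 0.945 in wt. Restricting each list to its 20000 highest-scored peaks gave 1.75 in HDAC3 KO and 1.04 in wt. LPS-treated HDAC3 KO had 14 peaks centred there and LPS-treated wt 6, and 10 of the 14 overlapped no peak of LPS-treated wt, against 35.3% of the whole list. This stretch was singled out after its values were seen. Those 10 scored 80.1 to 224, with a median of 117, below the median of 145 of their list. The highest were 24339162 to 24340399 (224) and 24448134 to 24448855 (222), at which no other library had a peak. The window from 24500001 to 24550000, picked out after its values were seen, held 4 peaks covering 3.75 kb in LPS-treated HDAC3 KO, and the other 3 libraries had no peak in it. In the other windows of the stretch, cover from 24200001 was 3.06 kb in LPS-treated HDAC3 KO, 2.02 kb in untreated HDAC3 KO, 3.24 kb in LPS-treated wt and 2.99 kb in untreated wt. Cover from 24550001 was 2.22, 0.330, 0.444 and 0.307 kb in the same order. The windows from 24250001, 24300001, 24400001 and 24450001 held at most 1.46 kb in any library. The whole LPS-treated HDAC3 KO list covered 50.4 Mb, the most of the 4 lists (36.4, 37.4 and 35.4 Mb for untreated HDAC3 KO, LPS-treated wt and untreated wt), and the part of this in the result was not tested.

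The third domain, at the Lpp end, carried most of the cover that differed with LPS. Peaks covered 80.1 kb in LPS-treated HDAC3 KO against 14.4 kb in untreated HDAC3 KO (5.55-fold), and 91.2 kb in LPS-treated wt against 29.0 kb in untreated wt (3.15-fold, or 5.78-fold when each list was cut to its 20000 highest-scored peaks). The larger fold in HDAC3 KO came with a lower untreated cover, 0.498 times that of wt, while the LPS-treated cover was 0.879 times that of wt. There were 58, 21, 89 and 43 peaks centred in it in LPS-treated HDAC3 KO, untreated HDAC3 KO, LPS-treated wt and untreated wt. LPS-treated HDAC3 KO thus had fewer peaks than LPS-treated wt, and they were wider, with a median of 1149 bp against 860.0 bp. Peaks were also wider in LPS-treated HDAC3 KO over the whole lists, with medians of 836 against 722 bp. Peaks stood close together with LPS, with a median gap of 308 bp in HDAC3 KO and 201 bp in wt, against 3791.5 bp in HDAC3 KO and 1834 bp in wt without LPS.

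The first window of the third domain, 24600001 to 24650000, had the most cover of the interval with LPS. It held 24.3 kb in 15 peaks in LPS-treated HDAC3 KO, 3.77 kb in 5 peaks in untreated HDAC3 KO, 22.0 kb in 22 peaks in LPS-treated wt and 3.47 kb in 5 peaks in untreated wt. It ranked 57, 2877, 26 and 3122 by cover in its library. Most of its cover lay in a chain of closely spaced regions, made by merging overlapping peaks of the 4 lists, from 24623572 to 24644671.

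Along this chain the left part was called in all 4 libraries and the right part only with LPS. At 24627752 to 24629424 the scores were 1589 in LPS-treated HDAC3 KO, 197 in untreated HDAC3 KO, 1308 in LPS-treated wt and 218 in untreated wt. The next region, 24629499 to 24634269, was scored 1293, 371, 1184 and 355 in the same order and held the 3530-bp peak that ranked 3 by width among the members in LPS-treated HDAC3 KO. From 24634306 to 24644671, the chain's 3 further regions had peaks in both LPS-treated libraries and in neither untreated library. They included the highest-scored LPS peak without an untreated HDAC3 KO peak within 5 kb, at 24637764 to 24641271 (3508 bp, score 1434), where LPS-treated wt had 3 peaks with scores of up to 583. Near the right end of the chain, LPS-treated wt had a peak at 24643245 to 24644427 (549), where LPS-treated HDAC3 KO was scored 481.

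The window from 24650001 to 24700000 held 11.7 kb in LPS-treated HDAC3 KO, 0.818 kb in untreated HDAC3 KO, 12.7 kb in LPS-treated wt and 2.13 kb in untreated wt. It held the members ranked 2 and 3 by width in LPS-treated wt, 24654273 to 24657077 (2805 bp, score 856) and 24670050 to 24672782 (2733 bp, 1143). At the first of these, LPS-treated HDAC3 KO was scored up to 437, untreated wt 50.1, and untreated HDAC3 KO had no peak. The window from 24700001 to 24750000 held 7.25 kb in LPS-treated HDAC3 KO, 0.738 kb in untreated HDAC3 KO, 5.55 kb in LPS-treated wt and 2.31 kb in untreated wt.

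The window from 24750001 to 24800000 set the LPS-treated libraries apart. It held 3.44 kb in 4 peaks in LPS-treated HDAC3 KO and 10.3 kb in 15 peaks in LPS-treated wt, and no peak in either untreated library. The 4 peaks of LPS-treated HDAC3 KO scored 140 to 161. The 15 of LPS-treated wt scored 53.0 to 679, with a median of 207, and the highest, at 24766768 to 24767694, was also the highest-scored LPS-treated wt peak of the interval with no untreated wt peak within 5 kb. Of the 15 merged regions there, 4 were called in both LPS-treated libraries and 11 in LPS-treated wt alone. Over the genome these patterns made up 6.56 and 7.58% of regions, and as the interval was chosen on its cover, nothing is read from the distance. The leftmost region, at 24749628 to 24750046 (score 53.0, LPS-treated wt alone), lay mostly to the left of the window.

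In the windows from 24800001 and 24850001, LPS-treated wt covered the most. From 24800001 to 24850000, cover was 6.86 kb in LPS-treated HDAC3 KO, 0 in untreated HDAC3 KO, 9.83 kb in LPS-treated wt and 1.31 kb in untreated wt. From 24850001 to 24900000 it was 5.38, 2.53, 9.53 and 5.18 kb in the same order, and the narrowest of the 5 widest LPS-treated wt members lay at 24878334 to 24880816 (2483 bp, score 674). Untreated HDAC3 KO was the lowest in both windows. A peak of LPS-treated HDAC3 KO at 24821578 to 24824314 (score 620) had a counterpart of up to 726 in LPS-treated wt and none in either untreated library. At 24826709 to 24827367, untreated wt had a peak (192) that was matched in LPS-treated HDAC3 KO (180) and LPS-treated wt (493), and untreated HDAC3 KO had none within 5 kb.

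From 24900001 to 24950000, cover was 17.5 kb in LPS-treated HDAC3 KO, 4.45 kb in untreated HDAC3 KO, 16.7 kb in LPS-treated wt and 7.77 kb in untreated wt. A peak there was among the 5 widest in both LPS-treated libraries and the widest in untreated wt: 24930590 to 24933956 (3367 bp, score 1813) in LPS-treated HDAC3 KO, 24931512 to 24934047 (2536 bp, 1953) in LPS-treated wt and 24931586 to 24933984 (2399 bp, 601) in untreated wt. Untreated HDAC3 KO had 3 peaks at the same place, scored up to 196. At 24910040 to 24913376, LPS-treated HDAC3 KO had a peak scored 1329, LPS-treated wt one of 1364 and untreated wt small ones of up to 121, and untreated HDAC3 KO had none within 5 kb. In the last window, 24950001 to 25000000, untreated wt was the highest, with 3.67 kb in LPS-treated HDAC3 KO, 2.13 kb in untreated HDAC3 KO, 4.47 kb in LPS-treated wt and 6.82 kb in untreated wt.

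Windows were called higher or lower where cover differed by at least 5 kb and 2-fold between 2 libraries, over the 21 whole windows of the interval. With LPS, 6 were called higher in HDAC3 KO and 5 in wt, and 0 were called lower in either genotype. Over the 17547 windows of the genome, 4.05% were called higher and 0.365% lower with LPS in HDAC3 KO, and 1.74% higher and 0.615% lower in wt. The windows from 24600001, 24650001, 24800001 and 24900001 were called in both genotypes, those from 23950001 and 24700001 in HDAC3 KO alone, and that from 24750001 in wt alone. At the Bcl6 end the difference in wt was 7.36 kb and stayed under 2-fold. The interval was picked on this contrast, so nothing is read from its counts. Across the 21 windows the LPS difference in HDAC3 KO and that in wt were correlated with r = 0.90 (Pearson) and rho = 0.66 (Spearman), a description over neighbouring windows of the same libraries.

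Between genotypes, 1 of the 21 windows was called lower in LPS-treated HDAC3 KO than in LPS-treated wt, the window from 24750001, and 0 were called higher. Of all windows, 0.0969% were called lower, which is 17 windows, and 2.55% higher. The window was not called with windows shifted by 25 kb or with 100-kb windows. Counting every difference of any size, 14 windows had more cover in LPS-treated HDAC3 KO than in LPS-treated wt and 6 had less, with a median difference of 849 bp against 271 bp over all windows. In untreated cells 0 windows were called higher or lower in HDAC3 KO than in wt, against 0.319% higher and 0.131% lower over the genome. Any difference counted, 6 windows had more cover in untreated HDAC3 KO than in untreated wt and 9 had less, with a median difference of 0 bp in the interval and over all windows.

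**Figure D4:**
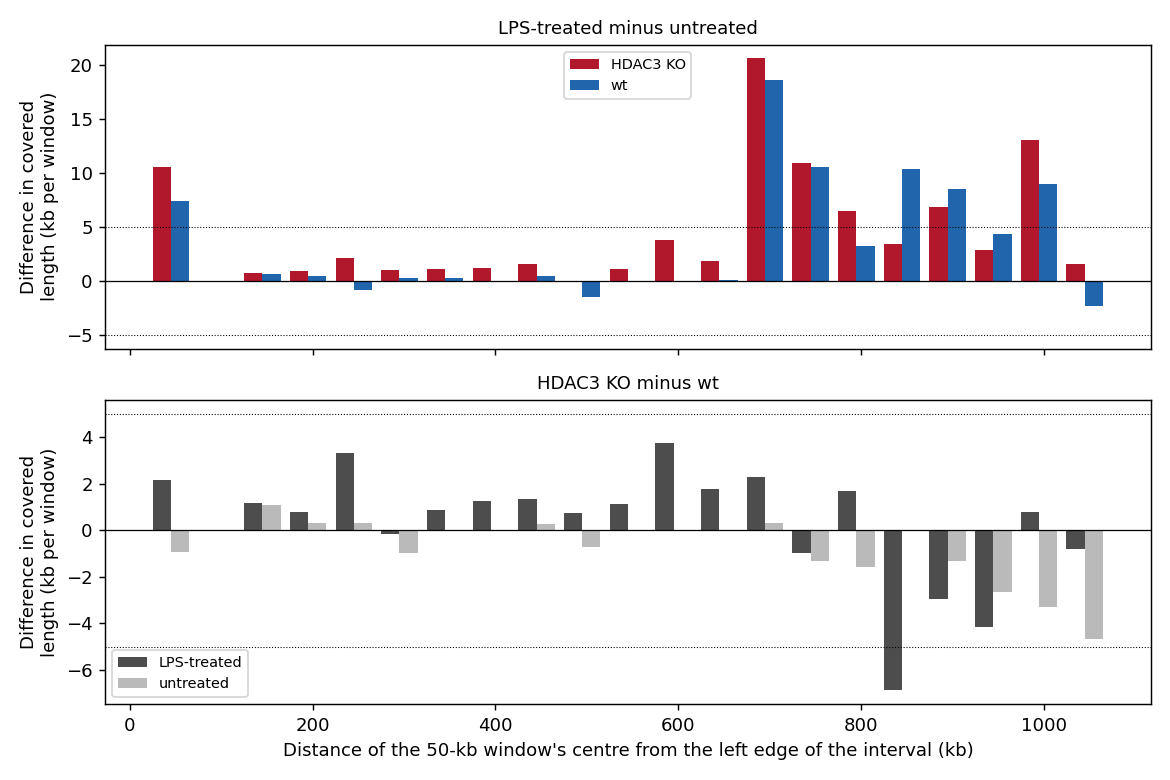
Difference in covered length (kb) for each whole 50-kb window against the distance of its centre from the left edge of the interval. The upper panel gives LPS-treated minus untreated cells in each genotype and the lower panel HDAC3 KO minus wt in each treatment, with dotted lines at 5 kb. LPS differences pass 5 kb at the Bcl6 end (10.49 kb in HDAC3 KO, 7.36 kb in wt) and in the third domain, and 1 window of the third domain lies at -6.89 kb for LPS-treated HDAC3 KO minus LPS-treated wt.

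Peak by peak, 61 of the 93 members in LPS-treated HDAC3 KO (65.6%) overlapped no peak of untreated HDAC3 KO, against 39.9% of the whole list, and 63 of the 111 in LPS-treated wt (56.8%) overlapped none of untreated wt, against 31.7%. Counting any peak within 500 bp as a counterpart left 52.7% in HDAC3 KO and 49.5% in wt without one. Conversely, 4 of the 48 members in untreated HDAC3 KO (8.33%) and 10 of the 70 in untreated wt (14.3%) overlapped no peak with LPS, against 10491 of the 41956 peaks of the untreated HDAC3 KO list and 35.6% of the untreated wt list. The interval was chosen on this contrast, so these shares describe it and nothing is read from their distance to the lists.

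Between genotypes, peaks without a counterpart were found on both sides. Of the LPS-treated HDAC3 KO members, 24 of 93 (25.8%, exact Clopper-Pearson 95% interval 17.3 to 35.9%) had no peak in LPS-treated wt, against 35.3% of the list. Of the LPS-treated wt members, 32 of 111 (28.8%, 20.6 to 38.2%) overlapped no LPS-treated HDAC3 KO peak, against 19.5%. In untreated cells, 5 of 48 HDAC3 KO members (10.4%, 3.47 to 22.7%) had none in wt, against 24.6%, and 31 of 70 wt members (44.3%, 32.4 to 56.7%) had none in HDAC3 KO, against 29.3%. The intervals hold counting error alone, peaks next to each other share their chromatin, and with 1 library per genotype they test no difference. The cover of every list had been seen when the interval was chosen, so nothing is read from the distance of these shares to the lists. The untreated wt share was 23.1% among the 20000 highest-scored peaks per list.

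Fewer members stood over 5 kb from any peak of the library compared. Against the other treatment, on which the interval was chosen, there were 33 among LPS-treated HDAC3 KO members (35.5%, against 21.3% of the list) and 1 among untreated ones (2.08%, against 11.1%), and 34 among LPS-treated wt members (30.6%, against 14.9%) and 5 among untreated ones (7.14%, against 18.6%). Against the other genotype there were 12 HDAC3 KO members (12.9%, against 16.5%) and 6 wt members (5.41%, against 9.06%) with LPS. None of the 6 scored above 80.5. Without LPS there were 4 HDAC3 KO members (8.33%, near the 7.94% of the list) and 14 wt members (20.0%, against 14.4%). As above, nothing is read from the distance of these shares to the lists.

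Merging overlapping peaks of the 4 lists gave 114 regions in the interval. A peak in all 4 libraries was found in 22 of them (19.3%, against 28.5% of the 62522 regions of the genome). Both LPS-treated libraries and neither untreated one had a peak in 16 (14.0%, against 6.56%), and both untreated libraries alone in 1 (0.877%, against 4.86%), the region at 24434517 to 24435977 given above. LPS-treated wt alone had a peak in 26 (22.8%, against 7.58%) and LPS-treated HDAC3 KO alone in 20 (17.5%, against 14.5%). All libraries but untreated HDAC3 KO had a peak in 13 (11.4%, against 3.45%), all of them in the third domain. That domain also held 22 of the 26 regions called in LPS-treated wt alone, and 7 of the 20 called in LPS-treated HDAC3 KO alone. Of all 114 regions, whatever their pattern, 76 overlapped it. These counts move with how peaks are merged and filtered: with gaps of up to 500 bp merged, both LPS-treated libraries alone had 6 regions, and all libraries but untreated HDAC3 KO had 5. The interval was chosen on its cover in these lists, so nothing is read from the distance of these shares to the genome.

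At the edges of the interval, the first member from the left lay 28.5 kb inside in LPS-treated wt and 47.3 to 50.4 kb inside in the other libraries. The nearest peak outside lay 30.8 kb to the left in LPS-treated wt and 31.6 kb in LPS-treated HDAC3 KO. It lay 318 kb to the left in untreated wt and 320 kb in untreated HDAC3 KO. On the right, the last member lay 5.97 kb inside in LPS-treated HDAC3 KO (score 51.6) and the first peak beyond lay 8.00 kb outside (57.7). In the other libraries the first peak beyond lay 7.88 to 11.3 kb outside. The right border of the third domain is thus only the edge of the interval.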

How the data were processed

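Acetylated histone H4 was profiled by chromatin immunoprecipitation and sequencing in 4 libraries. Bowtie and build mm9 were named in the submitters' processing notes, and per the file headers peaks were called with MACS for each library against an input library. Versions, settings and read depth were unknown. Each deposited list gives a start, an end and a score per peak, and the score was used only to describe or rank peaks within its list.

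Cover was summed in 50-kb windows on a grid from the chromosome start, and overlapping peaks (at least 1 bp) of the 4 lists were merged into regions. Named peaks were the 5 widest per library and, per comparison and direction, the 3 highest-scored lying over 5000 bp from any peak of the library compared; windows with at least 5 kb in any library were named. Others were chosen after their values were seen. The members, lists and settings were chosen with earlier results of these data known. Coordinates are mm9, counted from 1. With 1 library per group no test was run. The plan's list of BCL6 corepressor genes needed an mm9 annotation and was not run. Counts were checked on simulated lists, and 14 of 14 were recovered. Software was Python 3.11.15, numpy 2.4.6, scipy 1.17.1 and matplotlib 3.10.9.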

Additional observations from a re-analysis of the deposited data

Results flagged for a closer look

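In 6 windows of 50 kb the covered length differed in opposite directions in a pair of matched contrasts, each with 1 library per group, so the differences between contrasts were not tested. For HDAC3 KO minus wt, the window from 23950001 at the Bcl6 end stood at 2.17 kb in LPS-treated and -0.957 kb in untreated cells, 3.13 kb apart. The window from 24400001 stood at 0.722 and -0.706 kb in the same order (1.43 kb apart), that from 24700001 at 1.70 and -1.57 kb (3.27 kb apart), and that from 24900001 at 0.773 and -3.32 kb (4.09 kb apart). For LPS-treated minus untreated cells, the window from 24150001 stood at 2.14 kb in HDAC3 KO and -0.875 kb in wt (3.01 kb apart), and that from 24950001 at 1.54 and -2.34 kb (3.89 kb apart). None of these differences in genotype or treatment reached 5 kb.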

How the results depend on the processing

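The limits are 1 library per group, unknown depth, and peak calls whose splitting sets every count of peaks and regions. Of 64 values of covered length under another setting, 55 kept their direction and moved by at most 1.5 times. By the same 1.5 times, 49 of 56 counts of windows and 4 of 18 counts of regions held. Shares of peaks without a counterpart were judged otherwise, and 25 of 32 stayed inside the exact 95% interval of the main share. That interval allows larger moves, as from 8.33 to 15.4% for untreated against LPS-treated HDAC3 KO with the 20000 highest-scored peaks. The cause of each change was not tested. The ratios by stretch and the joining of peaks in the longest region were added after seeing the data.

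With 100-kb windows, which leave out the Bcl6 end, 3 windows were called higher with LPS in wt, and between LPS-treated HDAC3 KO and wt 1 was called higher and 0 lower. Untreated HDAC3 KO then had 1 called lower than wt, as it did (1) with cover scaled to the mean total, where LPS-treated HDAC3 KO had 2 called lower than wt. Windows shifted by 25 kb gave 0 there. The LPS-treated HDAC3 KO to wt ratio of cover was 0.785 over the interval and 0.842 at the Bcl6 end when scaled, against 1.06 and 1.14 unscaled, and 0.918 over the interval with the 20000 highest-scored peaks. With those peaks, the LPS-treated to untreated ratio in wt was 5.78 in the third domain, and from 24200001 to 24600000 it was 1.75 in HDAC3 KO and 1.04 in wt, and the untreated HDAC3 KO to wt ratio was 1.19. Peaks at or above the median score also gave 1.04 and 1.19.

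Settings for the merged regions were gaps of up to 500 bp merged, peaks at or above the median score, and the 20000 highest-scored peaks. Regions in all libraries but untreated HDAC3 KO numbered 5, 5 and 2 under these, in LPS-treated HDAC3 KO alone 11, 11 and 7, and in LPS-treated wt alone 14, 9 and 16. Merging gaps left 6 in both LPS-treated libraries alone, and the score filters left 12 and 11 in all 4 and 2 and 2 in both untreated libraries alone. Among peaks without a counterpart, LPS-treated HDAC3 KO against untreated had 52.7% and the reverse 2.08% when a peak within 500 bp counted, where LPS-treated wt against untreated had 49.5%. LPS-treated wt against untreated had 70.3% with an overlap of 50% of the peak, 66.7% at or above the median score and 76.1% with the 20000 highest-scored. LPS-treated wt against LPS-treated HDAC3 KO had 19.7% at or above the median score, and untreated wt against untreated HDAC3 KO 23.1% with the 20000 highest-scored. Joining peaks across 500 bp left 2 peaks in the longest region for untreated HDAC3 KO cells and 1 for untreated wt cells.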
